A study of Mus musculus with 6 samples.

Results

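The CDK inhibitors, the D-type cyclins and Rb1 were followed in NIH3T3 cells that express the TAZ-CAMTA1 (TC) fusion protein, with and without aurintricarboxylic acid (ATA), a small molecule studied for its action on TAZ bound to TEAD transcription factors. The 10 genes were taken by symbol (Cdkn1a, Cdkn1b, Cdkn2a, Cdkn2b, Cdkn2c, Cdkn2d, Ccnd1, Ccnd2, Ccnd3 and Rb1) among the 55401 genes counted. The rule contains no measured value, but the genes were chosen with earlier results of these data known. Of these 10 genes, 8 passed the filter on low counts, and Cdkn2a and Cdkn2b did not.

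NIH3T3 is an immortalized line of mouse embryonic fibroblasts. RNA was sequenced from 2 libraries of cells with an empty vector and DMSO (EV), 1 library of cells with TC and DMSO (TC) and 3 libraries of cells with TC and 10 μM ATA (TC + ATA), each after 48 h of treatment. All carry the NIH3T3 background, and TC was introduced from outside and expressed stably. The number of clones behind each line is not given in the sources used here, and EV cells with ATA were not analysed here, so the action of ATA without TC is not among these comparisons. The labels do not say whether libraries of a group came from separate cultures, and the p-values then measure only the spread between these libraries.

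Library totals ran from 58471484 to 74413193 counts (median 71053010). The 3 libraries with ATA differed less among themselves (chi-square of the counts per degree of freedom 5.86 to 6.61) than the EV pair did (61.3), and no pair differed by as little as sampling noise. Mouse Wwtr1, which encodes TAZ, had 104 to 110 CPM (counts relative to the library total after TMM scaling, which sets libraries level by their typical gene) in EV, 139 CPM in TC and 129 to 131 CPM in TC + ATA, and Camta1 had 15.4 to 19.2 CPM in all 6 libraries. These counts do not separate an introduced transcript from the mouse gene. The 6 fibroblast markers summed to 11004 and 12625 CPM in EV, 16003 CPM in TC and 14978 to 15990 CPM in TC + ATA, and among them Thy1 was lower in the TC-expressing libraries (69.6 to 86.0 CPM) than in EV (204 and 183 CPM). The part of these marker differences in the results was not tested. The other sums were at most 8.51 CPM for 4 haematopoietic, 3.44 CPM for 4 endothelial and 0.494 CPM for 4 epithelial markers.

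D-type cyclins bind CDK4 or CDK6 in early G1, and the active kinases phosphorylate the retinoblastoma protein, which then releases E2F factors that switch on the genes of S phase. INK4 proteins (Cdkn2a to Cdkn2d) bind CDK4 and CDK6 and keep the cyclins away, whereas Cip/Kip proteins (Cdkn1a, encoding p21, and Cdkn1b, encoding p27) bind cyclin-CDK complexes and above all inhibit CDK2. NIH3T3 cells are known to have lost the INK4a/ARF locus, which holds Cdkn2a. Many of these proteins are controlled by degradation, which RNA counts do not show. In bulk RNA, fewer cells with a transcript and less of it in each cell cannot be told apart.

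Ccnd1, which encodes cyclin D1, changed more than any other of the 8 genes in the comparisons with EV. It lies on the minus strand of chromosome 7 from 144929931 to 144939925 (GRCm38). Its level was 216 and 200.4 CPM in EV, 813 CPM in TC, and 697, 670.0 and 663 CPM with ATA. Every TC-expressing library was far above both EV libraries, and each library with ATA was below the one without. The level was 3.90-fold higher in TC than in EV (log2 fold change 1.96, SE, the standard error, 0.09, adjusted p = 1.15e-06 in the quasi-likelihood test of edgeR with Benjamini-Hochberg adjustment) and 3.25-fold higher in TC + ATA than in EV (log2 fold change 1.70, SE 0.07, edgeR adjusted p = 4.26e-07). Both calls were kept under all 13 alternative settings.

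Between TC + ATA and TC, the log2 fold change of Ccnd1 was −0.26 (95% interval −0.46 to −0.07), which was not called when adjusted over all genes (edgeR adjusted p = 0.320, unadjusted p = 0.0132). With ATA the mean stood at 77.5% of the distance from EV to the single TC library. Leaving out either EV library, the replicates that differed most, took it past the limit. Without EV replicate 1 the adjusted p was 0.000850, without EV replicate 2 it was 0.00114, and in a fit without EV it was 0.000905 (edgeR). TC has no replicate in any of these fits.

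**Figure D1:**
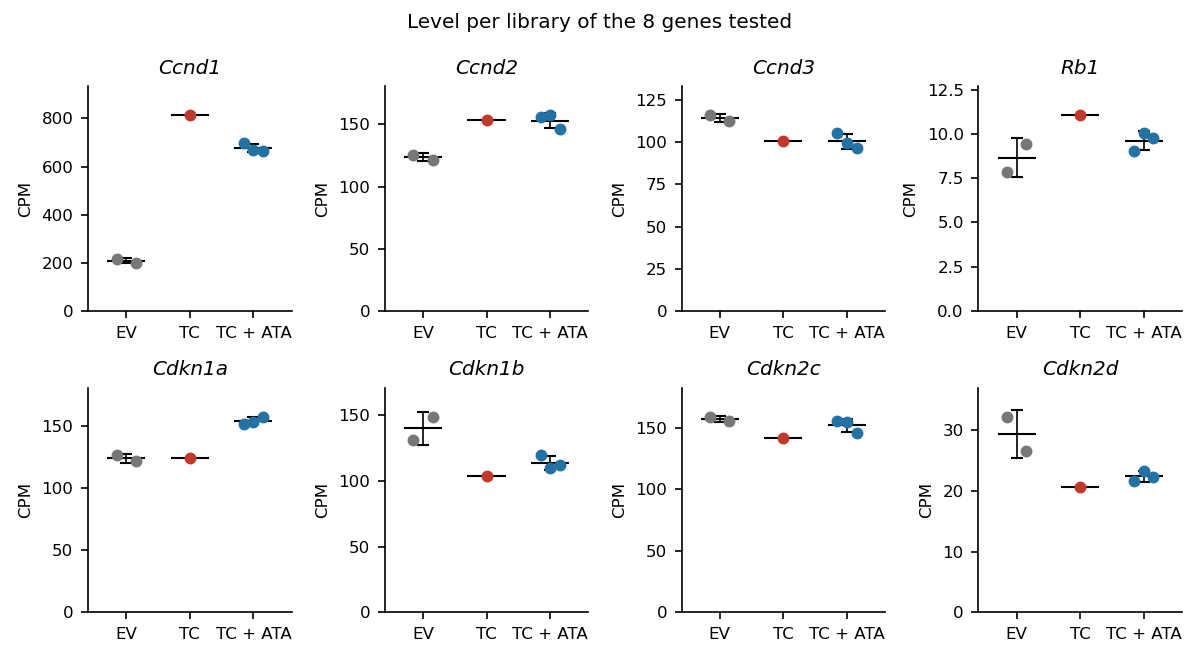
Level of the 8 genes that passed the filter, in CPM on linear axes from 0, for each library of EV (grey), TC (red) and TC + ATA (blue). Lines mark the group means and error bars the SD, which TC lacks as it has 1 library; Ccnd1 rises from 200.4 to 216 CPM in EV to at least 663 CPM in every TC-expressing library, whereas the other genes move far less.

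Ccnd2, encoding cyclin D2 (chromosome 6, 127125162 to 127152193, minus strand), was modestly higher in cells with TC. Its levels were 126 and 122 CPM in EV, 154 CPM in TC and 156, 157 and 146 CPM in TC + ATA, without overlap between EV and the rest. The change on the log2 scale was 0.31 (SE 0.08, edgeR adjusted p = 0.0200) in TC versus EV and 0.31 (SE 0.06, edgeR adjusted p = 0.00440) in TC + ATA versus EV. The former call held in 8 of 13 alternatives and was lost, among others, with only the EV and TC libraries in the fit (edgeR adjusted p = 0.238), with scaling by library size only (0.0740) and without TC + ATA replicate 1 (0.0564) or 2 (0.0625).

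Ccnd3, encoding cyclin D3 (chromosome 17, 47505051 to 47599691, plus strand), went the other way. It had 116 and 113 CPM in EV, 101 CPM in TC and 105, 99.5 and 96.7 CPM in TC + ATA, so both EV libraries were above the rest. Against EV, the change with ATA was −0.18 on the log2 scale (SE 0.06, edgeR adjusted p = 0.0456), a call close to the limit that was lost in DESeq2 (adjusted p = 0.0961) and whenever 1 TC + ATA library was left out (0.0698 to 0.178), and that held in 7 of 13 alternatives. In TC versus EV it was −0.18 (95% interval −0.38 to 0.01, edgeR adjusted p = 0.145). Neither gene differed detectably between TC + ATA and TC, with log2 fold changes of −0.01 for Ccnd2 (95% interval −0.18 to 0.17, edgeR adjusted p = 0.989) and −0.00079 for Ccnd3 (95% interval −0.18 to 0.18, edgeR adjusted p = 0.999).

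Ccnd1 was the largest part of the D-type cyclin transcripts in every library, and its share was higher in the TC-expressing ones. To set levels of different genes side by side, CPM were divided by the exonic length in kb. On that scale Ccnd1, Ccnd2 and Ccnd3 had 44.2, 13.1 and 13.0 CPM per kb in EV, 173, 16.3 and 11.5 in TC and 144, 16.3 and 11.5 in TC + ATA, as means of each group. Ccnd1 thus made up 63.3% and 62.3% of the summed D-type cyclin level in EV, 86.1% in TC and 83.8%, 83.5% and 84.1% in TC + ATA. The share of Ccnd3 went from 18.5 ± 0.383% (SD, n = 2) in EV to 5.72% in TC and 6.68 ± 0.115% (SD, n = 3) in TC + ATA. Ccnd2 and Ccnd3 did not differ beyond their spread in EV on this scale. Their order rests on the length used, since with the longest transcript of each gene Ccnd3 was above Ccnd2 in all 3 groups.

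Of the Cip/Kip genes, Cdkn1a (chromosome 17, 29090976 to 29100727, plus strand) was higher in TC + ATA than in EV, whereas no difference was detected between TC and EV. It had 127 and 122 CPM in EV, 125 CPM in TC and 152, 153 and 158 CPM in TC + ATA. The TC library lay between the EV libraries, and all TC + ATA libraries lay above the other 3 libraries. The change on the log2 scale was 0.01 in TC versus EV (95% interval −0.17 to 0.18, edgeR adjusted p = 0.973), turning to −0.10 with scaling by library size only, and 0.31 in TC + ATA versus EV (SE 0.06, edgeR adjusted p = 0.00293). Against TC it was 0.31 (SE 0.08), which was not called over all genes (edgeR adjusted p = 0.156, unadjusted p = 0.00280). As for Ccnd1, that call depended on the EV libraries, with adjusted p-values from edgeR of 0.00175 without EV replicate 1, 0.00139 without EV replicate 2 and 0.00125 in a fit without EV.

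Cdkn1b (chromosome 6, 134920401 to 134925513, plus strand) was lower in all TC-expressing libraries. It had 131 and 149 CPM in EV, 104 CPM in TC and 120, 110 and 112 CPM in TC + ATA. Both EV libraries were above every other library, and they differed from each other by more than the libraries with ATA did. The change on the log2 scale was −0.43 in TC versus EV (SE 0.10, edgeR adjusted p = 0.0127) and −0.30 in TC + ATA versus EV (SE 0.07, edgeR adjusted p = 0.0122). The calls held in 11 and 10 of 13 alternatives. The first was lost, among others, with only the EV and TC libraries in the fit (edgeR adjusted p = 0.0920), and the second without TC + ATA replicate 2 (0.0699) or replicate 3 (0.0642). Between TC + ATA and TC the log2 fold change was 0.13 (95% interval −0.08 to 0.35, edgeR adjusted p = 0.726). Relative to Cdkn1b per kb of exon, Cdkn1a had a ratio of 1.24 and 1.05 in EV, 1.54 in TC and between 1.63 and 1.80 in TC + ATA. With the longest transcripts the ratios were larger, at 2.12 and 1.79 in EV, 2.62 in TC and 2.78 to 3.08 in TC + ATA.

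Among the INK4 genes, Cdkn2c and Cdkn2d were expressed and Cdkn2a and Cdkn2b were at or near 0. Cdkn2d, encoding p19INK4d (chromosome 9, 21288410 to 21291407, minus strand), had 32.1 and 26.5 CPM in EV, 20.6 CPM in TC and 21.5, 23.2 and 22.2 CPM in TC + ATA. All TC-expressing libraries lay below both EV libraries, which themselves differed more than the TC + ATA libraries did. Its change on the log2 scale was −0.51 in TC versus EV (SE 0.13, edgeR adjusted p = 0.0172) and −0.39 in TC + ATA versus EV (SE 0.09, edgeR adjusted p = 0.00981). Both calls were kept under all 13 alternatives, between −0.64 and −0.37 in the former and between −0.51 and −0.26 in the latter. Between TC + ATA and TC the log2 fold change was 0.12 (95% interval −0.16 to 0.39, edgeR adjusted p = 0.821).

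Cdkn2c, encoding p18INK4c (chromosome 4, 109660876 to 109667189, minus strand), was the most abundant CDK inhibitor per kb of exon and was not called in any comparison. That order rests on the length used, since with the longest transcript of each gene Cdkn1a was above Cdkn2c in TC (60.0 against 57.3 CPM per kb) and in TC + ATA (means of 74.3 against 61.5). It had 159 and 155 CPM in EV, 142 CPM in TC and 155, 154 and 146 CPM in TC + ATA. The highest TC + ATA library was just under the lower EV library, a gap far smaller than the spread within either group. Its log2 fold changes were −0.15 in TC versus EV (95% interval −0.34 to 0.03, edgeR adjusted p = 0.213), −0.05 in TC + ATA versus EV (95% interval −0.19 to 0.09, edgeR adjusted p = 0.572) and 0.10 in TC + ATA versus TC (95% interval −0.07 to 0.28, edgeR adjusted p = 0.738). With scaling by library size only, or without either EV library, it passed the limit as lower in TC than in EV (adjusted p = 0.0350, 0.0429 and 0.0239 from edgeR).

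Cdkn2a, which encodes both p16INK4a and p19ARF, had 0 counts in every library. A count of 0 allows up to 3 counts in a library, or at most 0.0528 CPM in the shallowest one. Cdkn2b, encoding p15INK4b, had 4 counts in TC + ATA replicate 1 and 0 in the other 5 libraries, or 4 of 417211784 counts in all (exact binomial 95% interval 0.00261 to 0.0245 CPM, for counting error only). The genes lie next to each other on the minus strand of chromosome 4, from 89274471 to 89294653 and from 89306299 to 89311039. Of the 38 other protein-coding genes within 1 Mb, chosen for their position after these counts were seen, 4 reached 1 CPM in any library. Mtap, the gene nearest to Cdkn2a at a distance of 93.4 kb, was abundant at 485 to 591 CPM. Klhl9 had 77.4 to 95.7 CPM, Focad 23.4 to 31.1 CPM and Hacd4 0.734 to 3.28 CPM. On the far side, the window holds only Dmrta1 and Zfp352. Dmrta1 at 368 kb had 0 counts in all libraries, and Zfp352 at 908 kb had at most 0.113 CPM. Expressed genes thus flank the silent pair on the Mtap side only, within this window, but nearly all of the genes lie on that side. RNA counts do not show whether the DNA is present.

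**Figure D2:**
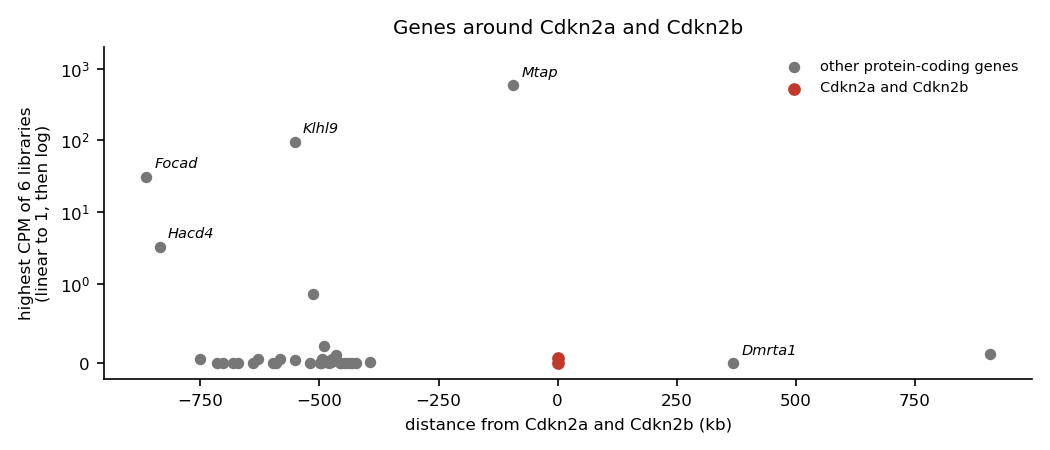
Highest CPM over the 6 libraries of each protein-coding gene within 1 Mb, against its distance in kb from Cdkn2a and Cdkn2b (red, at 0), on an axis that is linear up to 1 CPM and logarithmic above. Mtap, 93.4 kb away, reaches 591 CPM, while Cdkn2a has no counts and Cdkn2b stays under 0.1 CPM.

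Rb1, which encodes the retinoblastoma protein (chromosome 14, 73183673 to 73325822, minus strand), was the least abundant of the 8 genes per kb. It had 7.87 and 9.43 CPM in EV, 11.05 CPM in TC and 9.01, 10.1 and 9.79 CPM in TC + ATA, from 512 to 767 counts a library. The TC library was the highest of the 6, and the EV and TC + ATA libraries overlapped. No comparison was called, with log2 fold changes of 0.35 in TC versus EV (95% interval 0.02 to 0.69, edgeR adjusted p = 0.110), 0.15 in TC + ATA versus EV (95% interval −0.10 to 0.41, edgeR adjusted p = 0.320) and −0.20 in TC + ATA versus TC (95% interval −0.51 to 0.11, edgeR adjusted p = 0.710). Without EV replicate 2 the change from EV to TC was 0.49 on the log2 scale and passed the limit (edgeR adjusted p = 0.0147).

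Counted together, 2 of the 8 genes were called higher in TC than in EV (Ccnd1 and Ccnd2) and 2 lower (Cdkn1b and Cdkn2d), at an adjusted p of at most 0.05. The background over the 18539 genes in the fit was 14.8% higher and 13.2% lower. With scaling by library size only, which moved the median log2 fold change of all genes by −0.108, the share of calls that were higher was 39.6% in place of 52.7%, and it was 38.2% in place of 49.2% in TC + ATA versus EV. In TC + ATA versus EV, 3 of the 8 were called higher (Ccnd1, Ccnd2 and Cdkn1a), against 18.0% of all genes, and 3 lower (Cdkn1b, Cdkn2d and Ccnd3), against 18.6%. For 7 of the 8 genes the TC + ATA and EV libraries did not overlap, against 58.8% of all genes. Between TC + ATA and TC none of the 8 genes was called in either direction by edgeR or DESeq2 with all libraries, where 0.426% of all genes were called higher and 0.156% lower by edgeR, and 2 of the 8 had an unadjusted p under 0.05 (Cdkn1a and Ccnd1), as did 9.61% of all genes. The median log2 fold changes of the 8 genes were −0.07, 0.05 and 0.05 for TC against EV, for TC + ATA against EV and for TC + ATA against TC, next to −0.03, −0.01 and 0.00329 for all genes. None of the 8 reached the limit of 2 that the study set on the log2 fold change, although Ccnd1 in TC versus EV was close to it (1.96, 95% interval 1.76 to 2.17) and passed it without EV replicate 1 (2.01). The 3 comparisons share libraries, so their values for a gene are not independent.

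**Figure D3:**
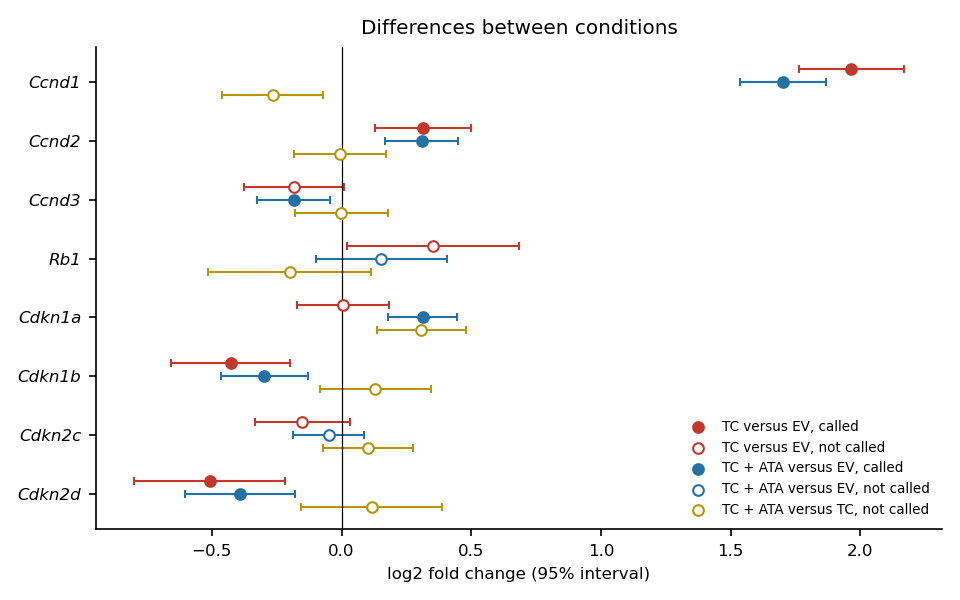
Log2 fold changes of the 8 genes with their 95% intervals from the edgeR fit, in TC versus EV (red), TC + ATA versus EV (blue) and TC + ATA versus TC (yellow); filled points have an adjusted p of at most 0.05. Ccnd1 stands at 1.96 and 1.70 against EV, and no point of TC + ATA versus TC is filled.

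Seen as families, the summed D-type cyclin level stood above the summed inhibitor level in every TC-expressing library and below it in both EV libraries. The summed level of the 3 D-type cyclins was 72.5 and 68.3 CPM per kb in EV, 200.4 in TC and 177, 170.3 and 167 in TC + ATA. The summed level of the CDK inhibitors was 144 and 142 CPM per kb in EV, 124 in TC and 141, 139.6 and 137 in TC + ATA. The TC library had the lowest inhibitor sum and the highest cyclin sum of the 6. The ratio of the sums was 0.493 ± 0.0147 (SD, n = 2) in EV, 1.62 in TC and 1.23 ± 0.0204 (SD, n = 3) in TC + ATA. These ratios are given as values without a test, and with the longest transcripts the means were 0.600, 1.73 and 1.31. Within the inhibitors, Cdkn2c held 40.8% to 41.1% of the sum in EV, 42.6% in TC and 39.5% to 41.2% in TC + ATA. Cdkn1a held 24.2% to 24.8% in EV, 28.4% in TC and between 30.4% and 32.3% in TC + ATA. These shares rest on the exonic length, and with the longest transcripts Cdkn1a was above Cdkn2c in TC and in TC + ATA.

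**Figure D4:**
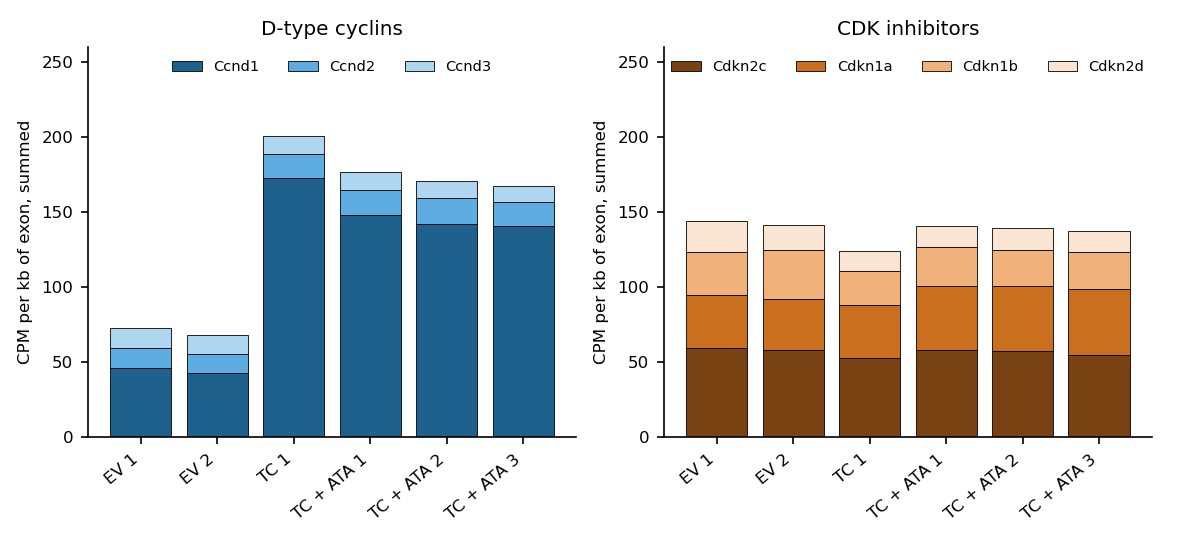
Summed levels of the D-type cyclins (left) and the CDK inhibitors (right) in each library, in CPM per kb of exon, with 1 stacked colour per gene; Cdkn2a and Cdkn2b are left out as they are at or near 0. The cyclin sum is 68.3 to 72.5 in EV and at least 167 in every TC-expressing library, nearly all of the difference being Ccnd1.

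Several of these genes share exonic bases with a gene on the opposite strand, and the use of strand in counting is not given in the sources used here. Ccnd1 shares 1100 of its 4709 exonic bases with LTO1, which had 17.6 and 22.3 CPM in EV, 22.4 CPM in TC and 19.3 to 22.1 CPM in TC + ATA, far under Ccnd1 in every library. Ccnd3 shares 361 of 8775 bases with Bysl (62.1 to 80.3 CPM). Rb1 shares 896 of 6015 bases with Rcbtb2 and Lpar6, and Rcbtb2 was far above Rb1, with 70.2 and 63.2 CPM in EV, 40.04 CPM in TC and 42.9 to 47.1 CPM in TC + ATA. Rcbtb2 was lower in TC + ATA than in EV (log2 fold change −0.59, edgeR adjusted p = 0.000266), and its part in the Rb1 counts was not tested. Cdkn1a shares 273 bases with a transcript of at most 0.936 CPM and Ccnd2 shares 740 bases with 2 antisense genes of at most 0.686 CPM. Rb1 also spans Gm17233 and Mir687 without shared exonic bases, and the CDK inhibitors other than Cdkn1a overlap no annotated gene.

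The genes with a pattern most like that of Ccnd1 were Epha2, an ephrin receptor, and Cpox, an enzyme of haem synthesis. Over the 6 libraries their centred log2 CPM differed from that of Ccnd1 by a root mean square of 0.04 each, the smallest among the 10423 genes with a mean of at least 5 CPM. Epha2 had 95.1 and 88.9 CPM in EV, 375 CPM in TC and 325, 309 and 313 CPM in TC + ATA. Cpox had 43.0 and 42.3 CPM in EV, 166 CPM in TC and 145, 145 and 141 CPM in TC + ATA.

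The partners of the D-type cyclins changed unequally. Of 9 genes for CDK4/6 partners and G1/S kinases, 3 were called higher and none lower in TC versus EV, and 2 were called higher and none lower in TC + ATA versus EV. For this list and those that follow, the shares over all genes are 14.8% higher and 13.2% lower in TC versus EV, and 18.0% and 18.6% in TC + ATA versus EV. Cdk6 had 28.7 and 30.0 CPM in EV, 91.1 CPM in TC and 81.1, 75.4 and 72.9 CPM in TC + ATA. It was thus higher in all TC-expressing libraries (1.63 on the log2 scale in TC versus EV with adjusted p = 2.79e-06 and 1.38 in TC + ATA versus EV with adjusted p = 1.17e-06, both from edgeR). Cdk4, named after its values were seen, had 561 to 679 CPM over the 6 libraries, and its change with ATA relative to EV was 0.01 on the log2 scale (SE 0.09, edgeR adjusted p = 0.966). Per kb of exon, Cdk6 made up 0.972% and 1.22% of the summed Cdk4 and Cdk6 level in EV, 3.39% in TC and 2.69% to 2.89% in TC + ATA, so Cdk4 remained by far the larger part. Cdk7, the kinase that activates other CDKs, changed by 0.67 on the log2 scale in TC + ATA versus EV (SE 0.07, edgeR adjusted p = 7.97e-05).

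Of 12 further pocket protein and E2F genes, 3 were higher and none lower in TC than in EV, and 2 were higher and 1 lower in TC + ATA than in EV, where 18.0% and 18.6% of all genes were. E2f7, which encodes a repressor among the E2F factors, had 38.6 CPM in both EV libraries, 83.2 CPM in TC and 78.4, 74.3 and 75.6 CPM in TC + ATA (log2 change 0.98 in TC + ATA versus EV, SE 0.06, edgeR adjusted p = 3.58e-06). E2f6, another repressor of the family, had 2.82 and 2.83 CPM in EV, 4.62 CPM in TC and 5.17 to 5.59 CPM in TC + ATA (log2 fold change 0.94, edgeR adjusted p = 0.000485). Rbl1, encoding the Rb relative p107, was lower in TC + ATA than in EV (log2 fold change −0.30, edgeR adjusted p = 0.0147), a call lost in 3 of 13 alternatives. The remaining Cip/Kip gene, Cdkn1c, rested on 4 to 12 counts a library and was not called (log2 change 0.53 in TC + ATA versus EV, SE 0.75, edgeR adjusted p = 0.627).

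Of 15 genes known as E2F targets, most of them S phase genes, 5 were higher and none lower in TC than in EV. Over all genes 14.8% were higher and 13.2% lower. The median log2 fold change of the 15 was 0.22 against −0.03 for all genes. The list also holds Cdk1, a mitotic kinase, and Mki67, a marker of proliferation in general. In TC + ATA versus EV, 5 were higher, Cdk1 among them, and none lower (18.0% and 18.6% of all genes), with a median of 0.12 against −0.01. Rrm2, a subunit of ribonucleotide reductase, had 154 and 139 CPM in EV, 330.2 CPM in TC and 296, 282 and 285 CPM in TC + ATA (log2 change 0.98 in TC + ATA versus EV, SE 0.07, edgeR adjusted p = 8.40e-06). Cdt1, which loads the replicative helicase, changed by 0.32 on the log2 scale (SE 0.06, edgeR adjusted p = 0.00415). With ATA against TC alone, none of the 15 was called by edgeR with all libraries, and the median was −0.12 against 0.00329 for all genes.

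Of 10 genes for ubiquitin ligase subunits that turn over p21, p27 and the D-type cyclins, only Ddb1 was called, as higher in TC + ATA than in EV (log2 fold change 0.62, SE 0.08, edgeR adjusted p = 0.000427) and in TC than in EV (0.68, edgeR adjusted p = 0.00157). Of 12 known regulators of transcription of these genes, 1 was higher and 2 were lower in TC versus EV, and 1 was higher and 3 lower in TC + ATA versus EV. These counts are near those of all genes (14.8% and 13.2%, then 18.0% and 18.6%). Smad3, a mediator of TGF-beta signals, had 103 and 93.5 CPM in EV, 72.7 CPM in TC and 66.7 to 69.5 CPM in TC + ATA (log2 change −0.54 in TC + ATA versus EV, edgeR adjusted p = 0.000217). Foxo3, an activator of Cdkn1b, was lower as well in TC + ATA than in EV (log2 fold change −0.40, edgeR adjusted p = 0.00216). Foxo1 (−0.11) and Foxo4 (0.10) of the same list were not called in that comparison. The part of these factors in the level of Cdkn1b was not tested. Myc had 99.8 and 95.7 CPM in EV, 133 CPM in TC and 105, 114 and 118 CPM in TC + ATA. Its change on the log2 scale was 0.45 in TC versus EV (edgeR adjusted p = 0.00563) and 0.20 in TC + ATA versus EV (edgeR adjusted p = 0.0495), and the latter call held in 6 of 13 alternatives. With ATA against TC alone, no gene of any of these lists was called by edgeR with all libraries. Cdk6 and Myc each stood at −0.25 on the log2 scale (95% intervals −0.44 to −0.06), and E2f6 stood at 0.23 (−0.13 to 0.59). Fits without an EV library, which changed the calls of Ccnd1 and Cdkn1a, were not examined for these genes in this comparison.

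**Figure D5:**
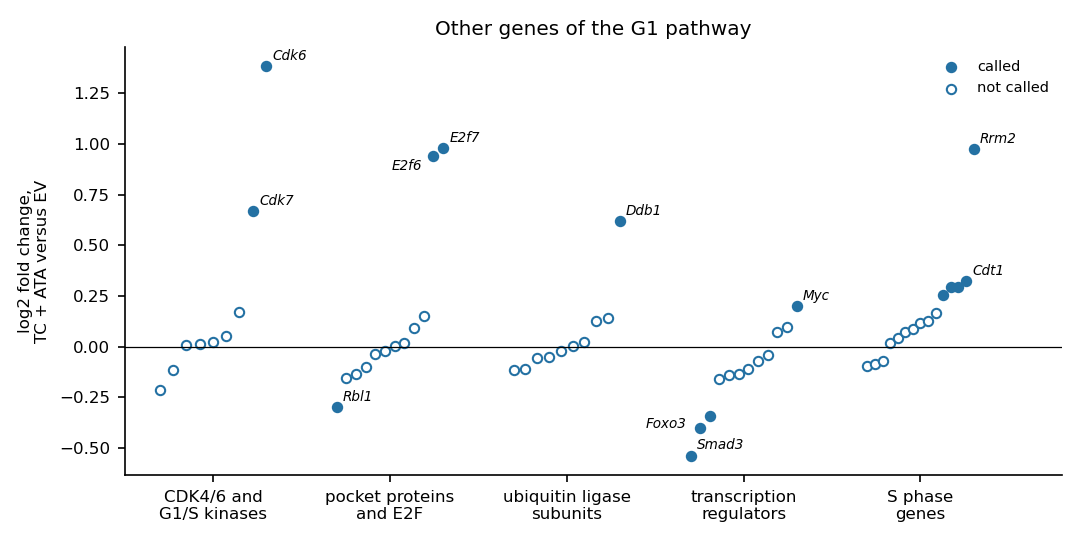
Log2 fold change of each gene in TC + ATA relative to EV, for 5 lists of the G1 pathway, sorted within a list; filled points have an adjusted p of at most 0.05. Cdk6 at 1.38 is the highest point and Smad3 at −0.54 the lowest, and most genes lie near 0.

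Promoters were available for 7 of the 10 genes, as 11 RefSeq windows of 300 bases on GRCm38.p6 (250 bases before and 50 after a transcription start), and not for Ccnd1, Ccnd2 and Rb1. They were searched on both strands for the core of the TEAD motif (CATTCC), for E2F sites (TTTCGCGC and TTTGGCGC) and for AP-1 sites (TGANTCA). The TEAD core was found in 1 of the 11 windows, against 14.7% of all 32851 windows. The E2F and AP-1 letters were found in none, against 0.813% and 7.81% of all windows. Other forms of the E2F site were not searched. The upstream Cdkn2a window holds TTTCCCGC, such a form, whose share over all windows was not counted. The windows of the 3 genes called lower in TC + ATA versus EV are shown, with the TEAD core in capitals where present. That of Ccnd3 is the downstream of its 2 windows and holds the core from 17 bases before the start. Each is written 5′ to 3′ on the strand of the gene, with Cdkn1b at chr6:134920151-134920450, Cdkn2d at chr9:21291160-21291459 and Ccnd3 at chr17:47593217-47593516.
Cdkn1b: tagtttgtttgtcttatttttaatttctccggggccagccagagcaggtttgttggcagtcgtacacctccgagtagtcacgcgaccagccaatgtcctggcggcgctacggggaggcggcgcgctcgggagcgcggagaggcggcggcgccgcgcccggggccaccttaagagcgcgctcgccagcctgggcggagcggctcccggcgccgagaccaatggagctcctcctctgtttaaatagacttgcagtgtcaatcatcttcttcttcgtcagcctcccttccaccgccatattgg
Cdkn2d: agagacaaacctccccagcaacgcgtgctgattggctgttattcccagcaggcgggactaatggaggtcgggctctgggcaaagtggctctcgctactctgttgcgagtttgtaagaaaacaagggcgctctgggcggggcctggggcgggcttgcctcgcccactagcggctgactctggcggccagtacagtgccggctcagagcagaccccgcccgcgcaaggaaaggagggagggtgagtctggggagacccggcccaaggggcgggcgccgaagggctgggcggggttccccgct
Ccnd3: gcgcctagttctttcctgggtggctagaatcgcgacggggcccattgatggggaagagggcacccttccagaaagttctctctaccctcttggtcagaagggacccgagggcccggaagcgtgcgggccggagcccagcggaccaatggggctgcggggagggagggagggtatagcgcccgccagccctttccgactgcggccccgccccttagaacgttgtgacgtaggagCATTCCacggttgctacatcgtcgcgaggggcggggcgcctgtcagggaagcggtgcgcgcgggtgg
A match of these letters is a description of the sequence and was not tested as a binding site.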

How the data were processed

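Raw counts of 6 libraries were analysed. Poly(A)-selected RNA was sequenced as paired-end reads and aligned to GRCm38.p6 (mm10) with HISAT2 2.2.1, the version given in the submitters' processing notes, and the authors deposited the counts per gene made with featureCounts, whole numbers without normalization. The annotation release and strand setting are not given in the sources used here.

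Symbols, positions and exonic lengths came from GENCODE M21, which holds 55141 of the 55401 gene IDs. Counts were fitted in R 4.3.3 with edgeR 4.0.16 (TMM, filterByExpr, glmQLFit and glmQLFTest, all 6 libraries and 3 groups in 1 fit, 3 residual degrees of freedom, Benjamini-Hochberg over 18539 genes, limit 0.05). Standard errors came from the F statistic. EV and TC + ATA set the spread, as TC has 1 library. DESeq2 1.42.0, other scalings and filters, a replicate block and leaving out each EV and TC + ATA library were alternatives. The longest transcript as length was planned for the D-type cyclin shares only. Its use for the levels per kb, the family sums and the ratios was added after seeing the data. The fit was also run on simulated data in which all groups had the same spread. That run does not check the spread that EV and TC + ATA share in the fit.

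The 10 genes and all lists were chosen with earlier results of these data known. Beyond the 10 genes, the text names up to 2 genes of each list called higher and 2 called lower in TC + ATA versus EV by size of change, the genes overlapping one of the 10, and the 2 nearest in pattern to any that changed by at least 1 (log2). Cdk4, Cdk1, Mki67, Foxo1, Foxo4 and the genes around Cdkn2a were added after their values were seen. Totals were 58471484 to 74413193 counts, and each group had few libraries.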

Additional observations from a re-analysis of the deposited data

How the results depend on the processing

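TC has 1 library, so no alternative checks its spread, and a library left out from EV leaves that arm with 1 that is assumed to vary like the others. Of 104 pairs of gene and alternative per comparison (8 genes, 13 alternatives), direction and call were kept in 94 for TC + ATA versus EV, 82 for TC + ATA versus TC and 85 for TC versus EV. The cause of the differences was not tested.

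In TC versus EV, genes called higher numbered 1 and lower 4 with library size only, where 5231 of all genes were called. With only the groups compared they numbered 1 and 1, with 3666 of all genes called, against 5191 in the main fit. Each library left out in turn gave 1 to 3 higher, 2 to 4 lower and 4074 to 7454 of all genes. In TC + ATA versus TC, with only the groups compared, 1 gene was higher, 1 lower and 1428 of all genes were called, and all genes called were 315 in DESeq2 and 350 with every gene of at least 1 count, against 108. Leaving out each library gave 0 to 1 higher, 0 to 1 lower and 10 to 1469 of all genes. In TC + ATA versus EV it gave 3 higher, 1 to 3 lower and 5010 to 8477 of all genes. With a limit of 2 on the log2 fold change as well, 0 of the 8 genes were called in any comparison, and 674, 10 and 717 of all genes in TC versus EV, TC + ATA versus TC and TC + ATA versus EV.

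Replicate numbers 1 and 2 occur in both EV and TC + ATA, and the deviations of same-numbered libraries had a correlation of −0.0535 over genes. This rests on 1 difference per group, so it cannot show whether same-numbered libraries share more than a number. With the replicate block, 1 gene was higher and 1 lower in TC versus EV with 3184 of all genes called, 40 of all genes were called in TC + ATA versus TC, and 2 were higher and 1 lower in TC + ATA versus EV with 4645 of all genes. The calls lost with it were those of Cdkn1b (edgeR adjusted p = 0.0901) and Ccnd2 (0.156) in TC versus EV, and of Cdkn1a (0.0558), Cdkn1b (0.0920) and Ccnd3 (0.292) in TC + ATA versus EV.

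Values near 0 changed sign. Cdkn1a in TC versus EV was −0.10 with library size only, −0.00304 with upper quartile, −0.00278 with every gene of at least 1 count, −0.00586 with the replicate block and −0.0251 without EV replicate 2, from −0.0251 to 0.0219 over the libraries left out. In TC + ATA versus TC, Ccnd2 was 0.0144 with library size only, 0.00564 with a mean of at least 1 CPM, 0.0346 with the replicate block, 0.00418 with only the groups compared, and −0.0254 to 0.0277 over the libraries left out (0.00540 without EV replicate 2). Ccnd3 was 0.00286 in DESeq2, 0.0194 with library size only, 0.00203 with upper quartile, 0.00317 with DESeq2 size factors, 0.0107 with a mean of at least 1 CPM, 0.0579 with the replicate block, 0.00888 with only the groups compared, and −0.0351 to 0.0286 over the libraries left out (0.0101 without EV replicate 2 and 0.00713 without TC + ATA replicate 2).

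With the longest transcript as length, the share of Ccnd1 was 53.1% in EV, 81.2% in TC and 78.3% in TC + ATA, that of Ccnd2 was 9.07% in TC and 10.5% in TC + ATA, and that of Ccnd3 was 28.3%, 9.74% and 11.3%. Leaving out each library gave 62.3% to 63.3% and 83.7% to 84.0% for Ccnd1, 18.4% to 18.9% and 9.34% to 9.60% for Ccnd2, and 18.2% to 18.8% and 6.62% to 6.73% for Ccnd3, in EV and TC + ATA.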
